A study of Mus musculus with 4 samples.

Results

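The strongest binding sites of NFIC in the mouse pancreas were taken as the peaks with a score of at least 20, which gave 275 of the 15824 peaks in the list that the authors deposited (1.74%). The remaining 15549 peaks served as the comparison. NFIC was profiled by ChIP-Seq, in which DNA bound by a protein is precipitated with an antibody and sequenced. The animals were wild-type mice, of mixed strain per the labels and 8 to 12 weeks old per the series description. Whole pancreas was used, so signal from acinar, duct, islet and stromal cells cannot be told apart. The 3 ChIP libraries were made with a Bethyl antibody against NFIC and 1 library of input DNA received no antibody. The list is 1 merged set with no value for a single library or for the input, so no replicate error can be given and the depth is unknown. Intervals below are 95% intervals (Wilson for a share, Newcombe for a difference of shares) and describe counting error alone, since peaks within 1 list do not stand for replicates. For a count of 0, the limit printed as what it allows is 3 counts of the total, and the upper Wilson bound, which is wider, is given beside it.

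NFIC belongs to the nuclear factor I family with NFIA, NFIB and NFIX, which share a DNA-binding domain and bind DNA as dimers. The dimer recognises a palindrome of a pair of short arms separated by a spacer, and a single arm is bound with lower affinity. NFI proteins act at promoters and at distal enhancers in many epithelial tissues, and the pancreas is made up mainly of acinar cells, which secrete digestive enzymes.

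The full NFI site was searched as TGGC and GCCA separated by 5 bases of any kind, on both strands, with at most 1 mismatch over its 8 fixed letters, in a window of 200 bp centred on each peak. The best match at some of the highest peaks, and at the peaks of NFI and retinoid receptor genes, is printed here because the presence, quality and number of such sites set the strong peaks apart from the others. Each line gives 29 bases of the plus strand of RefSeq GRCm38.p6, the assembly that mm10 represents. Capitals mark the 13 bases of the site.
A730008H23Rik, chr1:88277176-88277204: cactgttcTGGCCCAGTGCCAacaggaag
Tsc22d4, chr5:137745848-137745876: ggcaggccTGGCTCCGGGCCAgctggcag
Irf2bp2, chr8:126666634-126666662: ctgtcactTGGCTGCCAGCCAgaggcctc
Gm17597 and Tef, chr15:81802551-81802579: gctgcagcTGGCACAAGGCCAggtccgcc
Srp14, chr2:118510584-118510612: agggggccTGGCCTGGCGCCAgcatcgat
Nfic, chr10:81435648-81435676: agtccagcTGGCCAGGTGCCAggtaggaa
Tor1aip1, chr1:156036598-156036626: gctgctgaTGGCCAGTTGCCCaccaccgg
Per1, chr11:69097053-69097081: catgtcctGGGCCATCAGCCAagagaaca
Alas1, chr9:106247962-106247990: agccggccCGGCAAGGTGCCAgggtccct
Nfib, chr4:82506497-82506525: tgccgcgcTGGCCGCGTCCCAatccccac
Rara, chr11:98951530-98951558: gcccagctGGGCTCCAGGCCAgagcctta
Rxra, chr2:27718406-27718434: ctttgtccTGGCCCCATGCCCtctgtgca
The first 6 lines hold the 8 fixed letters without a mismatch and the other 6 differ from them at 1 letter.

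The members were selected on the peak score, so its values are a description. The score ran from 20.1 to 68.1, with a median of 23.1 and quartiles of 21.3 and 26.1, against a range of 3.39 to 19.9 and a median of 6.57 in the other peaks. Most strong peaks lay near the threshold, with 187 between 20 and 25, 43 at 30 or more and 7 at 40 or more. The score advanced in equal steps of 0.199, and all scores under 10 (100%) lay within 0.0051 of a whole multiple of it. The lowest strong peaks thus held 101 steps and the highest held 342. The sources used here do not say what 1 step stands for. Just inside the threshold, 10 peaks had a score of 20.1, among them an intergenic peak 143206 bp from *Rybp*, an intron peak 3010 bp upstream of *Cic* and an intergenic peak 175140 bp from *6820431F20Rik*. Just outside it, 18 peaks had a score of 19.9, among them intergenic peaks 10242 bp upstream of *Tmpo* and 1073 bp upstream of *Dgcr2*, and a 5′ UTR peak 9935 bp downstream of the TSS of *H2-DMa*. The 2 sides of the threshold were 1 step apart. The focus ratio, the fraction of the tags of a peak that lie on the expected side of its centre, had a median of 0.732 (interval 0.724 to 0.741) in the strong peaks and 0.684 in the others.

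**Figure D1:**
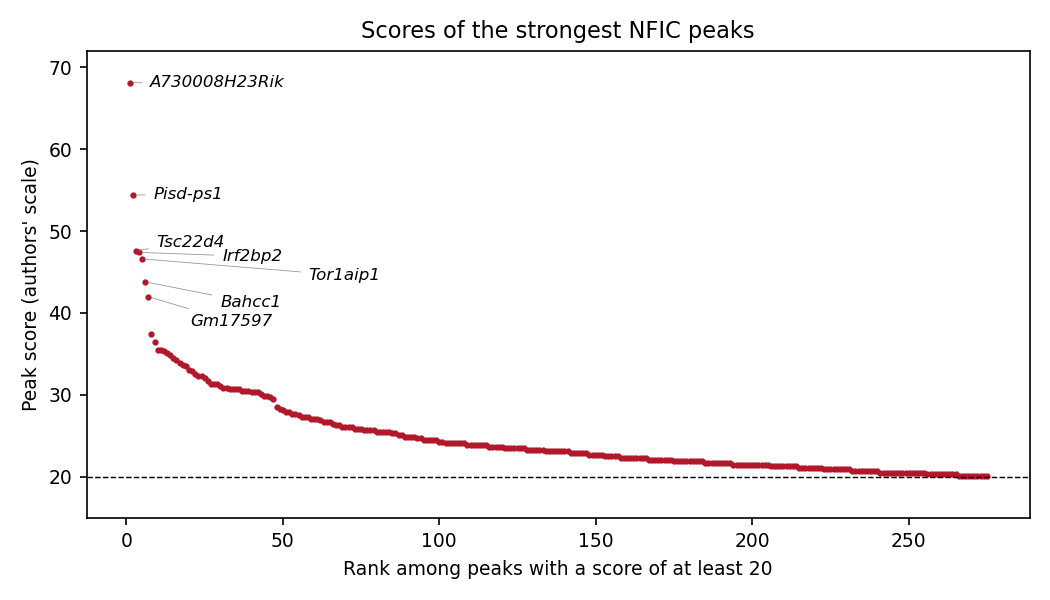
Score of each of the 275 strong peaks on the authors' scale (vertical axis) against its rank (horizontal axis), with the nearest gene of the 7 highest and a dashed line at the threshold of 20. The highest peak stood at 68.1, only 7 peaks reached 40, and 187 peaks lay between 20 and 25.

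The highest peak of all, at chr1:88277120-88277292 with a score of 68.1, was assigned to the TSS of *A730008H23Rik* 351 bp away, as an intron peak. In RefSeq the peak lies within *Hjurp*, which encodes the chaperone of the centromeric histone. The TSS of *Hjurp* is 373 bp away, and no other RefSeq gene has a TSS within 1000 bp, so the 2 symbols may name the same gene. The peak held 1 full site without a mismatch, and no other peak of the list lay within 50 kb of it. The next was the promoter peak of the pseudogene *Pisd-ps1* at chr11:3123827-3123999 (score 54.4, 108 bp upstream of the TSS), which held no full site and lies on sequence with a near-identical copy, described below. The promoter peaks of *Tsc22d4*, a leucine zipper gene of the TSC22 family (47.6, 113 bp upstream), and of *Tor1aip1*, which encodes an activator of torsin ATPases in the nuclear membrane (46.6, 151 bp upstream), followed with an intergenic peak of *Irf2bp2*. These lie at chr5:137745770-137745942, chr1:156036545-156036717 and chr8:126666559-126666731.

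*Irf2bp2*, a corepressor that binds IRF2, had the closest pair of strong peaks, with scores of 47.4 and 29.5 at 73209 and 74465 bp upstream of its TSS. Their starts were 1256 bp apart. Its paralog *Irf2bpl* had a strong intergenic peak of 35.3 at 9803 bp upstream. *Bahcc1*, a chromatin gene, had intron peaks of 43.8 and 25.9, and the higher of them, at chr11:120255180-120255352, held 3 full sites. The peak of 42.0 at chr15:81802473-81802645 was assigned to the non-coding gene *Gm17597*, and the TSS of *Tef*, a PAR bZIP factor with circadian expression, also lay within 1000 bp of it. Among the 15 highest peaks were also those of *Srp14*, a subunit of the signal recognition particle (37.4, intergenic, 30895 bp upstream), *Gm15735* (36.4, in an intron of *Ggact*), *Pga5*, a pepsinogen gene (35.5, promoter, 598 bp upstream) and *Arid3b*, an ARID-family DNA-binding protein (35.5, intron, 2634 bp downstream). They also held those of *Trit1*, a tRNA-modifying enzyme (35.1, intron, 34384 bp downstream), *Per1*, a repressor of the circadian clock (34.9, 1910 bp upstream and intergenic in the authors' annotation, but within *Per1* in RefSeq) and *Alas1*, the rate-limiting enzyme of heme synthesis (34.5, promoter, 17 bp upstream).

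No difference in the genomic elements under strong and other peaks was detectable with 275 strong peaks. Of the strong peaks, 59 fell in the promoter-TSS class of the authors' annotation, which surrounds the TSS (21.5% against 20.7%, a difference of 0.804 percentage points, -3.68 to 6.07). Introns held 110 (40% against 40.8%, difference -0.800, -6.47 to 5.14) and intergenic regions held 86 (31.3% against 30.6%, difference 0.698, -4.54 to 6.45). The signs of these small differences turned under several alternatives, and none of their intervals left out 0. The intervals do not exclude differences of about 6 points. The rarer classes were exons with 6 peaks, transcript ends with 6, 3′ UTRs with 3, non-coding exons with 3 and 5′ UTRs with 2, and the intervals of all 5 differences included 0.

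**Figure D2:**
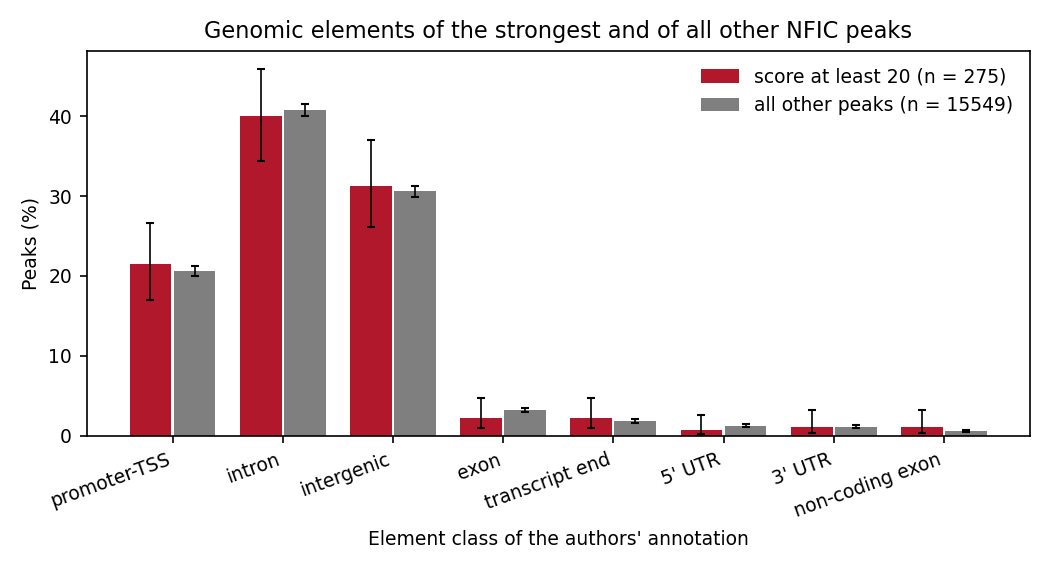
Share of peaks (vertical axis, percent) in each element class of the authors' annotation (horizontal axis) for the 275 strong peaks in red and the 15549 other peaks in grey, with 95% Wilson intervals. The bars of the strong and other peaks stand side by side at 21.5% and 20.7% in promoters, 40% and 40.8% in introns and 31.3% and 30.6% in intergenic regions.

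After *Pisd-ps1*, *Tsc22d4*, *Tor1aip1*, *Gm17597*, *Pga5* and *Alas1*, the highest promoter peaks were those of *Aldh3b1*, an aldehyde dehydrogenase (33.5, 87 bp upstream), the pseudogene *2610005L07Rik* (33.1, 31 bp upstream), *Dok4*, a docking protein of tyrosine kinases (32.5, 90 bp upstream), and, at 31.3 each, *Gm15408* and *Mrpl34*, a mitochondrial ribosomal protein gene. In RefSeq the TSS of *Abhd8* also lay within 1000 bp of the *Mrpl34* peak, and that of *Tor1aip2* within 1000 bp of the *Tor1aip1* peak. Of the 59 strong promoter peaks, 54 had their centre upstream of the TSS. The same count was not made for the other promoter peaks, and it depends on how far the class reaches to each side of the TSS. Nothing about strong peaks is read from it. The median distance of all 59 from the TSS was 128 bp (interval 93 to 197), while the median of the other promoter peaks was 98 bp (94 to 104). The 2 intervals overlapped.

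Nor was a difference in the distance to the nearest TSS detectable. The median distance was 9283 bp (6797 to 12443) in the strong peaks and 10451 bp (10065 to 10930) in the others. A TSS lay within 1000 bp of 74 strong peaks (26.9% against 27.4%, difference -0.495, -5.44 to 5.08), and within 5000 bp of 110 (40% against 38.8%). Between 10 and 100 kb lay 117 (42.5% against 43.3%). Beyond 100 kb lay 15 (5.45% against 7.63%, difference -2.18, -4.34 to 1.19). When every gene entered once with its highest peak, strong peaks were less often within 1000 bp of a TSS (28.0% against 35.2%, difference -7.21, -12.4 to -1.39). In that setting a gene whose highest peak is low counts among the others. The strong peaks lay upstream of their TSS in 139 cases (50.5% against 44.4%, difference 6.14, 0.216 to 12.1), a measure added after the values were seen, and the interval included 0 with 1 peak per gene (difference 4.44).

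Of the 15 strong peaks beyond 100 kb, the highest was intergenic, 197126 bp upstream of *Maf*, which encodes a large MAF bZIP factor (31.3, chr8:115903934-115904106). It held no full site and no other peak lay within 50 kb. The others among the 5 highest were assigned to *Arid1b*, a subunit of the BAF chromatin-remodelling complex (26.3, 126799 bp upstream), *Mycn*, a MYC-family factor (25.5, 131481 bp downstream), *Taf4*, a subunit of TFIID (24.7, 207322 bp downstream, in an intron of *Cdh4*) and *Gm29681* (24.5, 185757 bp upstream, within *Auts2* in RefSeq). These genes are the nearest in the authors' annotation. In RefSeq a nearer TSS (distance negative upstream) was present for the peaks of *Maf* (*Gm30712*, 188098 bp), *Arid1b* (*Gm34507*, -40047 bp) and *Mycn* (*Gm35155*, -17695 bp). Over all strong peaks the symbol of the nearest gene differed between the annotations for 18. Some of these had the same distance under both symbols, such as *H2afy3* and *Macroh2a3* (12807 bp) or *Fam69a* and *Dipk1a* (39433 bp). The 18 are thus not all changes of the nearest TSS. Of the 110 strong intron peaks, 73 lay in an intron of a gene with the symbol they were assigned to. This is a lower bound. Hosts without a symbol, as at the peaks of *Bahcc1*, or with another symbol, such as *Dipk1a* for *Fam69a*, are not among the 73.

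Strong peaks were less often on transposable elements than the other peaks. Such an element was annotated at 14 of them (5.09% against 9.96%, difference -4.87, -6.96 to -1.57). SINEs were at 2 (0.727% against 3.47%, difference -2.75, -3.35 to -0.840), namely peaks of *Bscl2* (24.1) and *Gadd45b* (22.3). LTR elements were at 6, LINEs at 5 and a DNA transposon at 1, with intervals that included 0 for each of these classes. The highest of the 14 was an intergenic peak of *Skil*, a repressor of SMAD proteins, on a possible LTR element (27.3), and none of the 43 peaks with a score of 30 or more was on such an element, which allows a share of up to 6.98% (Wilson 8.20%). With 1 peak per gene the difference was -3.48 and its interval included 0. Reads from repeats are often not placed uniquely, and the filter on such reads is not given in the sources used here, so the part of mapping in this difference was not tested. CpG islands outside promoters were annotated at 15 strong peaks (5.45% against 3.36%, difference 2.09, -0.0509 to 5.45).

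Some of the strong peaks lay on sequence with near-identical copies in the genome. Outside annotated repeats, 7 of 260 strong peaks (2.69%) and 120 of 13910 others (0.863%) had at least 1 further alignment of 90% identity or more over 80% or more of the window, a difference of 1.83 points (0.437 to 4.59). This measure was chosen after several of these peaks had been noticed, so the difference is a description. A first measure, exact copies of the central 50 bases, found 0 of 275 strong peaks, which allows a share of up to 1.09% (Wilson 1.38%), and 0.161% of the others. The 7 peaks were those of *Pisd-ps1* (1 copy, up to 97.0% identical), *Pisd-ps2* (1 copy, 95%), *2610005L07Rik* (6 copies, 99.0%), *4930467E23Rik* (4 copies, 98.0%), *6820431F20Rik* (5 copies, 98.0%), *Mir6546* (2 copies, 98.5%) and *Inip* (1 copy, 92.1%). Pseudogenes were nearest to 5 strong peaks (1.82% against 0.572%, difference 1.25, 0.198 to 3.61), and 4 of these 5 peaks, those of *Pisd-ps1*, *Pisd-ps2*, *2610005L07Rik* and *6820431F20Rik*, are among the 7. Where reads of such copies could be exchanged, the scores of these peaks are uncertain, which was not tested.

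Strong peaks occurred on 19 chromosomes, and their share of the peaks of an autosome ranged from 1.06% on chromosome 13 (7 of 661) to 2.54% on chromosome 17 (18 of 708). On chromosome X there were 0 of 275, which allows a share of up to 1.09% (Wilson 1.38%), while 171 of the other peaks lay there (1.10%). The interval of the difference ran from -1.28 to 0.286, so a lack of strong peaks on chromosome X was not detectable at this number of peaks. With a threshold of 15 the difference was -1.15 and its interval left out 0.

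A full NFI site was present in 240 of the 275 strong peaks (87.3%, 82.8 to 90.7) and in 51.1% of the other peaks, a difference of 36.1 points (31.6 to 39.6). A site without a mismatch was present in 82 strong peaks (29.8% against 13.1%, difference 16.7, 11.6 to 22.4). In windows of the same length 1000 bp to each side of the peaks, the full site was present in 9.82% of 550 windows beside strong peaks and in 8.86% of 31098 beside the others. The excess was therefore in the peak windows themselves.

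Many strong peaks held several sites. Counting only sites that do not overlap, 35 strong peaks held none, 147 held 1, 72 held 2, 20 held 3 and 1, an intron peak of *Ptprn2* with a score of 21.7, held 4. At least 2 sites were thus present in 93 (33.8% against 7.17%, difference 26.6, 21.3 to 32.4) and at least 3 in 21 (7.64% against 0.566%, difference 7.07, 4.48 to 10.8). Where a peak held several sites, the median distance from 1 site to the next was 49 bp in the strong peaks (115 pairs) and 49 bp in the others (1210 pairs). Of these pairs 21.7% and 20% were within 25 bp. The number of sites thus differed between strong and other peaks, and no difference in their distance was visible.

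**Figure D3:**
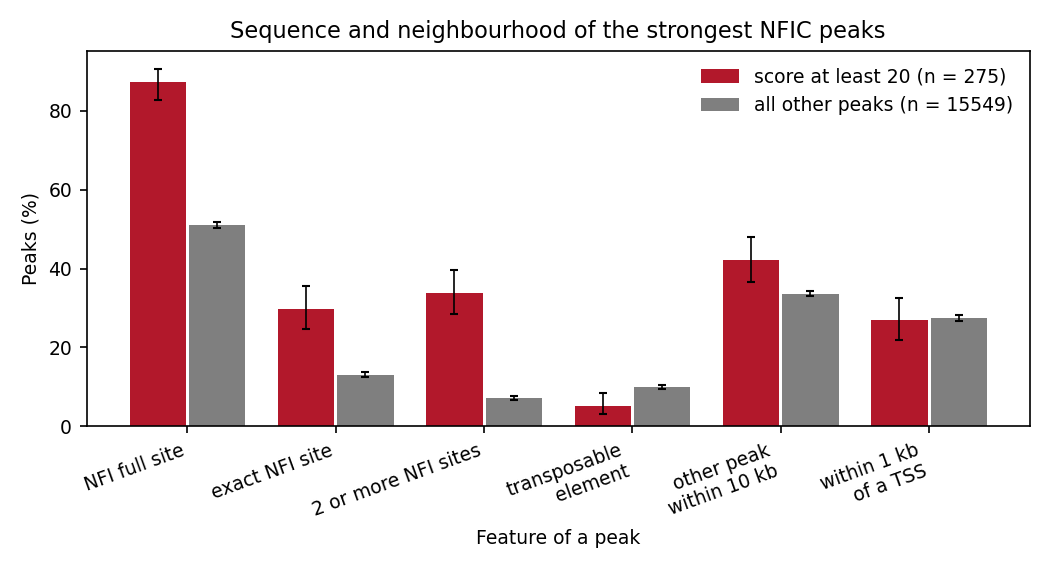
Share of peaks (vertical axis, percent) with each feature (horizontal axis) for the 275 strong peaks in red and the 15549 other peaks in grey, with 95% Wilson intervals. The strong peaks stand at 87.3%, 29.8% and 33.8% for the 3 measures of NFI sites, against 51.1%, 13.1% and 7.17%, while the bars for a TSS within 1000 bp are level at 26.9% and 27.4%.

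The sites of the strong peaks were also nearer to the peak centre. The median distance of the best site from the centre was 18.5 bp (16 to 21) in the 240 strong peaks that held one and 24 bp (24 to 25) in the 7953 others. It was under 10 bp in 28.8% and 20.9% (difference 7.80, 2.37 to 13.9) and from 50 to 100 bp in 10% and 19.8% (difference -9.80, -13.1 to -5.27). The best site was that with the fewest mismatches and, among equals, the one nearest to the centre. Windows with several sites, more frequent among strong peaks, can thus give shorter distances, and the part of this was not tested. Spacers other than 5 bp between exact arms were rare in both groups. A spacer of 4 bp was present in 8 strong peaks (2.91% against 1.23%, difference 1.67, 0.234 to 4.40), whereas for spacers of 3, 6, 7 and 8 bp the intervals included 0.

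The excess of full sites was present in every main element class, and was widest in promoters. There 51 of 59 strong peaks held a site (86.4%) against 35.0% of the other promoter peaks, a difference of 51.4 points (40.3 to 58.1). Outside promoters 87.5% of the strong and 55.3% of the other peaks held one (difference 32.2, 27.0 to 36.0), and the intervals of these differences did not overlap. The share was 90.9% against 56.3% in introns and 81.4% against 54.7% in intergenic regions. Strong peaks on transposable elements held a site in 9 of 14 cases (64.3% against 54.3%), and the interval of that difference, -15.6 to 29.5, included 0. Exact sites were present in 27.1% of strong promoter peaks and 4.42% of the other promoter peaks (difference 22.7, 13 to 35.2).

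The GC content of the windows was higher in the strong peaks, with a median of 59.0% (57.5 to 60) against 54.0%. The full site is itself rich in G and C, so the comparison was repeated within classes of GC content. With at least 60% GC, 91.3% of 126 strong peaks and 40.9% of the others held a site. From 50 to 60% the shares were 87.0% of 131 and 56.8%. Under 50%, where 18 strong peaks remained, they were 61.1% and 52.1%, and the interval of this difference (-13.6 to 27.6) included 0.

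Within the list the share of peaks with a full site was higher in each class of score up to the threshold, from 42.6% under 5 to 49.8%, 65.1% and 77.6% in the next classes of 5 units. Among the strong peaks it was 87.7% from 20 to 25, 82.2% from 25 to 30 and 90.7% at 30 or more, with overlapping intervals. Exact sites were present in 25.7% (19.9 to 32.4) of the peaks from 20 to 25 and in 48.8% (34.6 to 63.2) of those at 30 or more. Peaks with at least 2 sites made up 27.3% (21.4 to 34.1), 42.2% and 53.5% (38.9 to 67.5) of these 3 classes. Neither pair of intervals from the lowest and the highest class overlapped. In promoters the full site went from 20.1% of the peaks under 5 to 87.5% from 20 to 25.

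**Figure D4:**
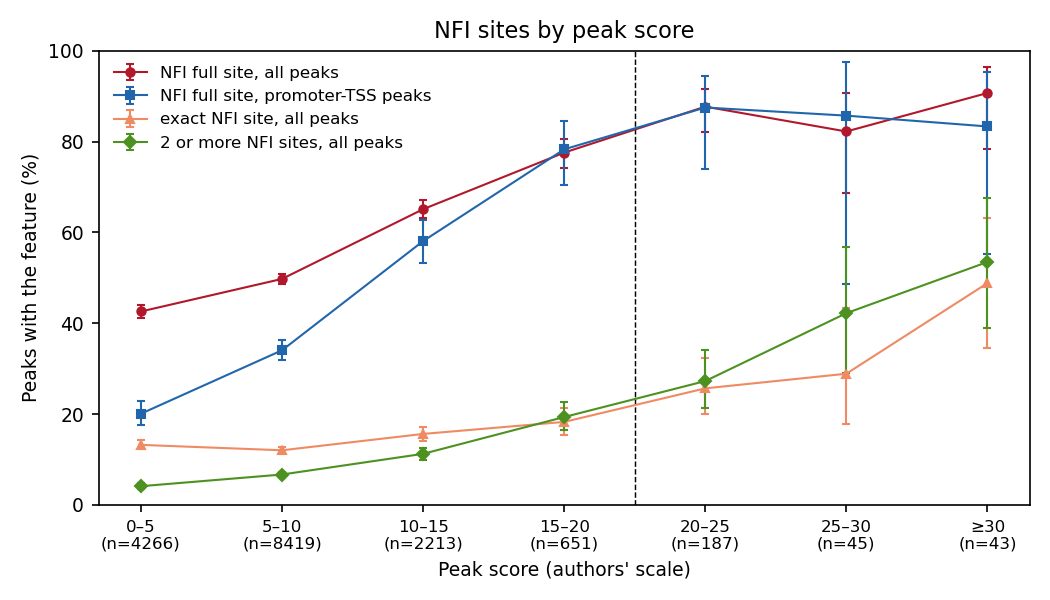
Share of peaks (vertical axis, percent) with a full NFI site, with a full site in the promoter-TSS class, with an exact site and with at least 2 sites, by class of peak score (horizontal axis, authors' scale), with 95% Wilson intervals and a dashed line at the threshold of 20. The full site goes from 42.6% in the lowest class to 87.7% just above the threshold and is level beyond it, while exact sites go on to 48.8% and repeated sites to 53.5% at 30 or more.

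No full site was found in 35 strong peaks, and this says only that these letters are not in the window. In 34 of them the best match had 2 mismatches and in 1 it had more. The single arm TTGGCA was present in 20 and a pair of exact arms with a spacer of 4 or 6 bp in 2. By class, 16 were intergenic, 10 in introns, 8 in promoters and 1 in an exon. The 4 of them with a score of 30 or more were the peaks of *Pisd-ps1* (54.4), *Maf* (31.3), *Idh2*, a mitochondrial isocitrate dehydrogenase (30.7), and *Pisd-ps2* (30.3).

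Letters recognised by other factors were searched in the same windows. Of 16 motifs, 4 (25.0%) differed between strong and other peaks by an interval that left out 0, and 2 of these were the NFI motifs. The arm TTGGCA, which lies within some full sites, was present in 40.7% and 33.5% (difference 7.21, 1.52 to 13.2). The E-box CAGCTG, bound by bHLH factors such as PTF1A and MIST1 of acinar cells, was present in 81 strong peaks (29.5% against 21.3%, difference 8.20, 3.08 to 13.9). In the sequences printed above for *Tsc22d4*, *Gm17597*, *Nfic* and *Rara*, these letters overlap the NFI site. How many E-boxes overlap an NFI site was not counted. The core of the motif of CTCF, an insulator protein, searched as CCA, AG and GGC separated by 2 bases each, was present in 26 (9.45% against 5.13%, difference 4.32, 1.38 to 8.37). Neither of the last 2 differences had an interval without 0 at a threshold of 30. Within GC classes, the E-box difference was 9.68 points (2.60 to 18.1) at 60% GC or more and 7.05 (-0.544 to 15.6) from 50 to 60%. The CTCF difference was 4.30 (0.460 to 10.6) and 4.83 (0.575 to 11.3). Under 50% GC, with 18 strong peaks, the differences were -0.495 and 0.840, and both intervals included 0. By element class, the E-box difference was 9.51 (0.754 to 21.7) in promoters and 11.5 (3.17 to 20.8) in introns. In intergenic regions it was 2.95 (-5.35 to 13.2). For CTCF these were, in the same order, 6.59 (1.12 to 16.9), 3.71 (-0.150 to 10.4) and 2.63 (-1.94 to 10.7). Of the 35 strong peaks without a full NFI site, 10 held the E-box and 0 held the CTCF core. The CTCF core shares CCA and GGC with the NFI arms GCCA and TGGC. Whether either excess is separate from that of NFI sites was not tested.

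For the other 12 motifs the interval included 0. The GATA motif GATAAG was present in 4.73% and 7.81% (difference -3.08, -5.07 to 0.138), the SP motif GGGCGG in 25.1% and 21%, the AP-1 motif TGANTCA in 3.64% and 5.29%, the FOX motif TGTTTAC in 4.36% and 3.97%, the NR5A2 motif CAAGGTCA in 1.09% and 2.05%, and the TEAD motif GGAATG in 9.09% and 10.3%. The CRE TGACGTCA and the PAR bZIP motif TTATGTAA were each present in 1 strong peak, and the HNF1 and HNF4 motifs in 2 each. The NFY motif CCAATCA was present in 12. The ETS motif CCGGAAGT, frequent in CpG-rich promoters, was in 0 of 275 strong peaks, which allows a share of up to 1.09% (Wilson 1.38%), and in 1.29% of the others (difference -1.29, -1.48 to 0.101). In windows of 60% GC or more the SP motif was present in 42.9% of the strong peaks and 59.5% of the others (difference -16.7, -25.1 to -7.83), and the ETS difference there was -3.11 (-3.68 to -0.113). In introns the SP motif had the opposite sign (17.3% against 9.95%, difference 7.33, 1.35 to 15.5). In promoters it was present in 64.4% and 58.4% (difference 6.01, -6.85 to 17.1), and the ETS difference there was -4.58 (-5.36 to 1.57). Element class and GC content were not combined, so the part of promoters in the GC-rich windows was not tested.

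Strong peaks had other peaks nearby more often. Another peak of the list lay within 10 kb of 116 strong peaks (42.2% against 33.7%, difference 8.51, 2.78 to 14.5) and within 50 kb of 235 (85.5% against 75.3%, difference 10.2, 5.46 to 13.9). At a threshold of 30, with 43 peaks, the difference within 10 kb was 10.4 and its interval included 0. In 24 cases a strong peak was followed by another strong peak within 100 kb, and 15 of these pairs lay within 20 kb. Strong peaks followed each other in this way at *Rapgef1*, an exchange factor for RAP1, which had them at 15587 bp upstream (25.5), in the promoter (22.7) and in an intron 13563 bp downstream (23.1). They spanned chr2:29604047-29633369. Pairs also joined neighbouring genes, such as *Creld2* and *Pim3* (22.3 and 23.9, 18975 bp apart). The pairs were not counted for other sets of peaks, so nothing is read from their number.

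The 275 strong peaks were assigned to 261 of the 9086 genes with a peak (2.87%). A single strong peak was assigned to 248 genes, 2 to 12 genes and 3 to *Rapgef1* alone. The 12 were *Irf2bp2*, *Bahcc1*, *Slc9a3r1*, *Zfp395*, *Arid1b*, *Pnrc1*, *Pim3*, *Rybp*, *Rxra*, *Rflna*, *Ptprn2* and *Prok2*. For 85 of the 261 genes (32.6%) the strong peak was the only peak, the median gene had 2 peaks, and *Rybp*, a Polycomb subunit, had the most with 13. The same figures were not computed for all 9086 bound genes. A gene with more peaks also has more chances of a strong one, so nothing is read from them. The nearest gene was protein-coding for 234 strong peaks (85.1% against 86.6%) and a non-coding RNA gene for 36 (13.1% against 12.6%). In the RefSeq annotation, 73 strong peaks had a TSS within 1000 bp, and 10 of them had TSSs of at least 2 genes there.

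Members of 13 gene lists were looked up, and the counts are a description because the score defines a strong peak. All 4 genes of the NFI family had a peak. The share of all annotated genes with a peak was not computed, so nothing is read from how many members of a list had one. *Nfic* had a peak of 30.5 in the intergenic region 8482 bp upstream of its TSS (chr10:81435569-81435741) with an exact site, and another of 8.56 in an intron. A further strong peak (26.7, chr10:81417027-81417199), assigned to *Mir1191b* and with 2 full sites, lies within *Nfic* in RefSeq, 18542 bp from the first. *Nfib* had a promoter peak of 24.1 at 746 bp upstream and 7 peaks below the threshold. The highest peak of *Nfia* scored 19.9, 1 step below the threshold, and that of *Nfix* scored 13.7.

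The immediate early and AP-1 genes had strong peaks at 4 of 16 bound members, where 2.87% of all bound genes had one. These were *Jun* (30.5, in its 3′ UTR), *Egr1* (26.7, 1266 bp upstream), *Atf3* (25.5, promoter, 311 bp upstream) and *Egr3* (21.5, in an intron of *Pebp4*, 21406 bp upstream of *Egr3*), all of which encode transcription factors induced quickly by stimulation. Among the nuclear receptor genes, the retinoid X receptor *Rxra* had 2 in introns (23.3 and 21.7, with 2 and 3 full sites) and the retinoic acid receptor *Rara* had 1 in an intron (23.7). Among the clock and PAR bZIP genes, *Per1* had the highest peak (34.9). The peak of *Tef* itself scored 6.57, apart from the peak of 42.0 near its TSS that was assigned to *Gm17597*.

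Of the 13 acinar transcription factor genes, all of which had a peak, 0 had a strong peak. Their highest peaks had a median score of 13.1, against 7.17 over all bound genes, and the highest was that of *Nr0b2* (18.3), followed by *Bhlha15*, which encodes MIST1 (17.9), and *Gata6* (17.5). Of the 26 bound genes of digestive enzymes and secretory proteins, 0 had a strong peak, the highest being the promoter peak of the elastase gene *Cela2a* (17.9). With 2.87% of all bound genes having a strong peak, nothing is read from either count. Nor is anything read from all 13 acinar factor genes having a peak, since the share over all annotated genes was not computed. *Pparg* reached 15.3 and *Cfi*, complement factor I, 10.2. Of the ER stress genes, 2 of 25 bound had a strong peak (2.87% over all bound genes), *Atf3* and *Creld2*, an ER chaperone (22.3, 12005 bp downstream). Of 26 bound ribosomal protein genes, *Rplp0* had one (22.5), a share of 3.85% against the same 2.87%. It lay in an intron of *Pxn*, 15592 bp upstream.

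Markers of other cells of the pancreas were looked up in the same way. With 2.87% of all bound genes having a strong peak, nothing is read from the counts of these short lists. Of 7 bound duct genes, *Muc1*, a mucin, had a peak of 33.7, which the authors' annotation places at the transcript end of *Trim46*, 4731 bp downstream of the *Muc1* TSS (chr3:89233701-89233873). The highest peaks of islet, endothelial and fibroblast genes were those of *Isl1* (14.1), *Pecam1* (9.16) and *Vim* (12.0), all below the threshold. Of 10 leukocyte genes, 0 had a peak. The share of all annotated genes with a peak was not computed, so nothing is read from that count either. Binding strength in whole tissue reflects the share of cells bound as well as occupancy per cell, and these cannot be told apart here.

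**Figure D5:**
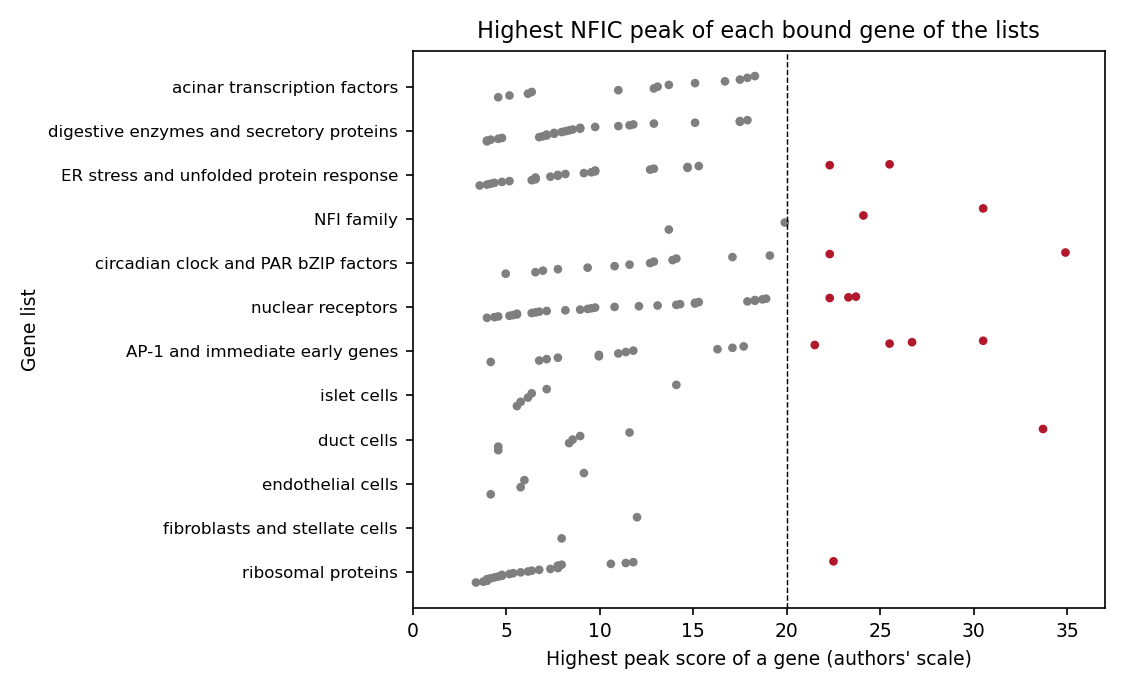
Highest peak score of each bound gene (horizontal axis, authors' scale) in 12 of the gene lists (vertical axis), with peaks at or above the threshold of 20 in red and the dashed line at 20. Past the line the highest points are *Per1* at 34.9, *Muc1* at 33.7, and *Nfic* and *Jun* at 30.5, the acinar transcription factor and digestive enzyme lists end at 18.3 and 17.9, and the leukocyte list has no bound gene and is not drawn.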

How the data were processed

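Wild-type pancreas was profiled in 3 NFIC ChIP libraries and 1 input library. Per the labels the authors used BWA, Picard, MACS2 and mm10. The methods name RUbioSeq+ for aligning reads and calling peaks, and HOMER for merging, calling and annotating them, in a paragraph that begins with downloaded data, without saying which steps the NFIC libraries had. The file header is that of a HOMER annotation. Thresholds for these libraries are not given in the sources used here. The authors deposited 1 merged list with a peak score of unnamed scale, a focus ratio (a fraction of tags) and a signed distance to the TSS in bp. It holds 0 columns of values per sample.

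Shares of strong and other peaks were compared by Newcombe intervals, and a difference was called where the interval left out 0. No p-value was computed, since peaks are not replicates. Of 34 shares compared beside the motifs, 9 were planned. Shares within element and GC classes, by spacer and by distance of the site from the centre were compared in addition to these. No interval was adjusted for the number of comparisons, so borderline ones are weak. Windows of 200 bp were read from RefSeq GRCm38.p6. Of 15725 peaks annotated to a transcript of that copy, 92.9% had the same distance within 1 bp. Near-identical copies were found with BLAST+ 2.17.0, and other steps used Python 3.11.15, pandas 2.3.3, scipy 1.17.1, pysam 0.24.0 and samtools 1.23.1. The search and intervals were tested on simulated data.

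The members, the gene lists and the measures were chosen with earlier results of these data known. Named genes are those of the 15 highest peaks, the 10 highest promoter peaks and the 5 highest beyond 100 kb, genes with several strong peaks, list members with a strong peak, and genes at the threshold. The ribosomal list, the genes with the RefSeq TSS or gene body at a peak, the genes at repeats, copies, peaks without a site and neighbouring pairs, and the members named below the threshold were chosen after their values were seen. Some list members with a strong peak are not reported here.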

Additional observations from a re-analysis of the deposited data

How the results depend on the processing

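Of the 9 planned differences, only the excess of full NFI sites kept its direction and its side of 0 under every alternative run, which varied the threshold, the peaks compared, the distance, the mismatches and the motif window. The other 8 each changed under at least 1 alternative. Differences are in percentage points, strong minus other peaks. The promoter difference was 7.26 at a threshold of 30, -0.385 at a threshold of 15, -5.07 with 1 peak per gene, -0.200 against other peaks up to the median score and -0.101 without near-identical copies. The intron difference was 3.38 with 1 peak per gene and 0.735 against peaks up to the median score, and the intergenic one -7.35 at a threshold of 30. The difference within 1000 bp of a TSS was 9.84 at a threshold of 30, -7.21 with 1 peak per gene, 0.0402 with peaks within 1000 bp counted once, and 1.16 within 5000 bp. Only the -7.21 had an interval without 0. That beyond 100 kb (-2.56) and that on chromosome X (-1.15) left out 0 at a threshold of 15, as did chromosome X against peaks up to the median score (-1.58). The intervals included 0 for transposable elements with 1 peak per gene (-3.48) and for another peak within 10 kb at a threshold of 30 (10.4). The non-NFI motifs called numbered 2, and 4 at a threshold of 15 and 0 at 30. List members with a strong peak, ribosomal proteins aside, numbered 12, and 34 at 15 and 4 at 30. The alternatives for motifs, gene lists and near-identical copies were chosen after seeing the data. The causes of these changes were not tested. No paired analysis was possible because the list has no columns per replicate and the labels number replicates in the ChIP group alone, and for the same reason no replicate could be left out.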
